A study of Mus musculus with 6 samples.

Results

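SALL4 intervals were described here around 8 genes of the LIN28, MYC, HMGA2 and IGF2BP families, genes known for roles in early development and in tumours. Several of them, like Sall4 itself, are called oncofetal because they are active in the embryo, largely silent in adult tissues and active again in some tumours; Myc is used more broadly by dividing cells. The genes were chosen by name as Lin28a, Lin28b, Myc, Mycn, Mycl, Hmga2, Igf2bp1 and Igf2bp3, out of 21883 protein-coding genes of the RefSeq annotation of GRCm38.p6. These genes, and the pathway lists below, were chosen with earlier results of these data known, so an excess over coding genes is only descriptive. Each gene was taken with 100 kb on each side, and every interval of the peak lists that touched this window was kept. That gave 139 of 55058 and 124 of 48295 intervals in the 2 lists of the floxed line, and 0 of 34 and 0 of 39 intervals in the 2 lists of the knockout line. A consensus region, defined as an overlap of at least 1 bp between the floxed lists and none with a knockout interval, was present 93 times in the windows, out of 37997 in all.

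DNA was recovered by CUT&RUN: a nuclease tethered through an antibody cuts out the DNA next to the target protein in permeabilised cells. The antibody was against SALL4, a zinc-finger transcription factor of pluripotent and germ cells. All cells were mouse embryonic stem cells kept in 2i + LIF, a medium that holds them in a naive pluripotent state. The labels give the genotypes as Sall4F/F, in which both alleles carry recombination sites around an intact gene (called wild type in the titles and below), and Sall4-/-. Each genotype was 1 cell line with 2 SALL4 libraries, so line and genotype cannot be told apart, and nothing states that the libraries came from separate cultures. Of the 6 samples, the 2 IgG samples were not analysed here. Peak lists hold no expression values, so the cell type could not be checked against its markers and no level of the 8 genes is known from these data.

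LIN28A and LIN28B are RNA-binding proteins that block the maturation of let-7, a family of small RNAs that rises as cells differentiate. In turn let-7 represses many growth genes, among them Hmga2, the Igf2bp genes, Myc and Lin28 itself, so that LIN28 and let-7 form a switch between the embryonic and the differentiated state. MYC, MYCN and MYCL are related transcription factors that pair with MAX and drive growth. HMGA2 binds the minor groove of AT-rich DNA and bends it, and the IGF2BP proteins bind and stabilise messenger RNAs.

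Fragments at a summit set the precision of each value. The fold enrichment and the p-value of the lists together gave back a whole number of fragments for 100% of the lines of each list, with a tolerance of 0.0001 in −log10 p. Wild-type summits had a median of 9 fragments and a minimum of 4, the same for both replicates. For the few knockout summits the medians were 12 and 13 and the minima 7 and 8. Total read numbers are not given in the sources used here. Fold enrichment below always means the authors' value of a summit over its local background, each with 1 added, with wild-type replicate 1 first. A region called strongest has the highest mean fold enrichment over both replicates.

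The first question was whether intervals at these genes depended on Sall4. Hmga2 had 47 and 43 intervals in wild-type replicates 1 and 2, Igf2bp3 had 30 and 29, Igf2bp1 had 17 and 18, and Mycn had 17 and 13. Myc had 13 and 9 intervals, Mycl 7 and 4, Lin28a 6 and 5, and Lin28b 2 and 3. Both knockout lists held 0 intervals in all 8 windows, so every wild-type count lay above both knockout counts. At Lin28b this rests on weak calls, with 8, 5 and 5 fragments in replicate 2. Summed over the windows, wild type averaged 131.5 ± 10.6 intervals (SD, n = 2) and both knockout libraries had 0, which is at least 43.8-fold higher when each knockout library is set to a floor of 3 intervals. The log2 difference of the sums with 1 added was 7.05, with p = 0.333 by exact permutation of the genotype among the 4 libraries (two-sided), which cannot give a smaller p with 2 against 2. A knockout interval in the same kind of window was rare everywhere, at 0.00914% of coding genes, while 82.2% had a wild-type consensus region. The absence of knockout intervals and the difference between genotypes are therefore not particular to these 8. The weakest knockout intervals had −log10 p-values of 7.63 and 7.12, against 3.55 and 3.60 in wild type. When the same minimum of 8 was applied to every list, 76 and 67 wild-type intervals were left in the windows, and again 0 in each knockout list.

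**Figure D1:**
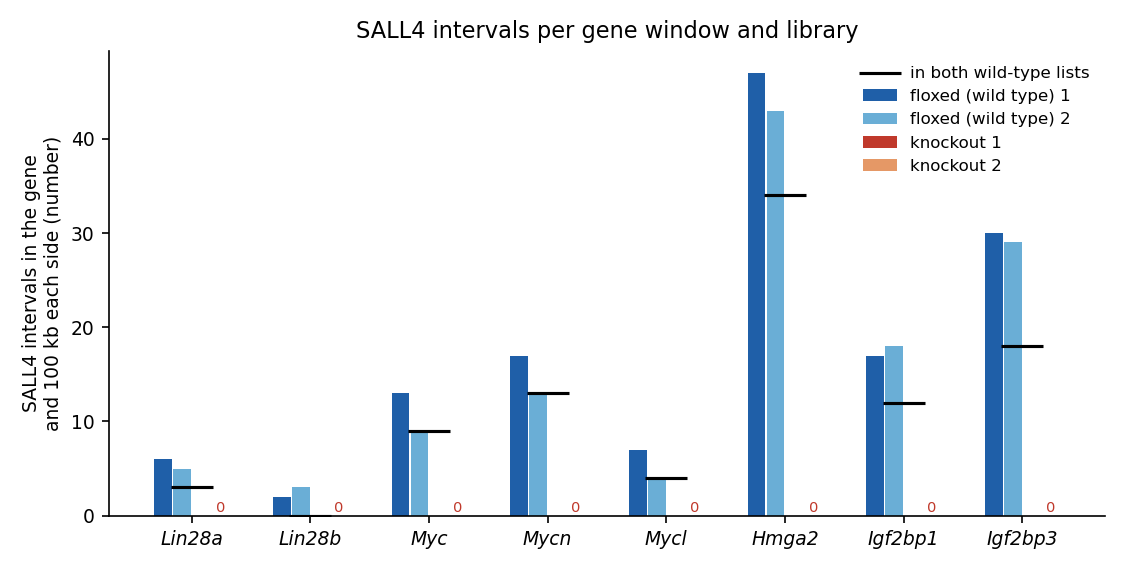
Bars give the number of SALL4 intervals (y axis) in each of 8 gene windows (x axis) for each of 4 libraries, and black lines give the consensus regions. The tallest pair stands at Hmga2 with 47 and 43 intervals, the lowest at Lin28b with 2 and 3, and all knockout bars are 0.

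The wild-type libraries gave much the same picture of the windows. Replicate 2 recovered 96 of the 139 intervals of replicate 1, or 69.1% (exact binomial 95% interval 60.7 to 76.6), against 70.4% over that whole list. Replicate 1 recovered 94 of the 124 intervals of replicate 2, or 75.8% (67.3 to 83.0), against 79.3% over that list. Both whole-list shares lie within these intervals, which cover counting error only. Intervals called in 1 list alone were weak, with median fold enrichments of 4.13 and 4.08 and a median of 6 fragments in each list. In the 93 consensus regions the medians were 7.58 and 6.80, with 11 fragments in each list. The replicate summits of these regions lay a median of 30 bp apart, against 32 bp over all consensus regions. In 91 of the 93 the fold enrichments of the replicates differed by less than 1 on the log2 scale. The SD of the log2 ratio was 0.426, against 0.425 over all consensus regions. Since a consensus region needs an overlap of both lists, such closeness is partly set by that rule.

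**Figure D2:**
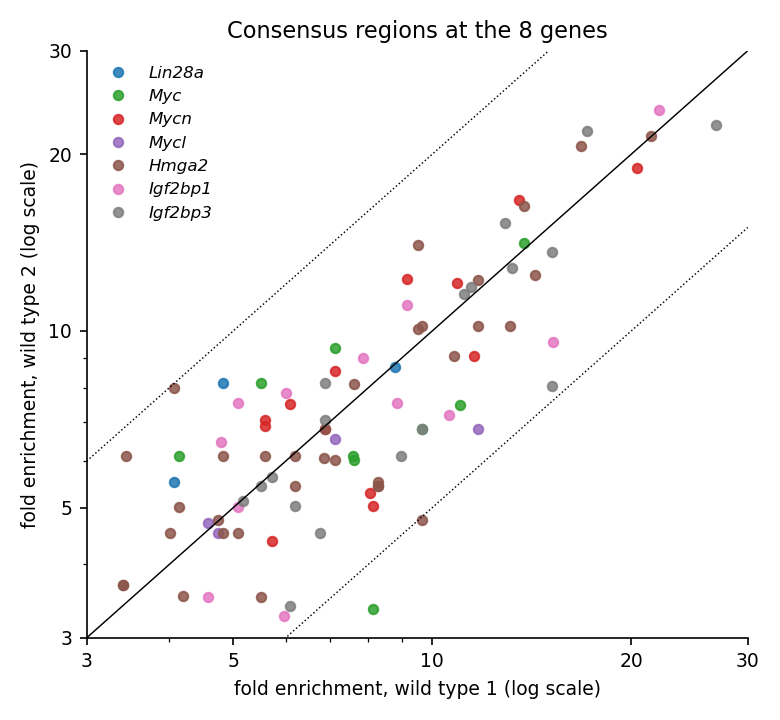
Each point is 1 of 93 consensus regions, with its fold enrichment in wild-type replicate 1 (x axis) and replicate 2 (y axis), both on log scales and coloured by gene. The solid line marks equal values and the dotted lines a difference of 1 on the log2 scale, outside which 2 regions lie.

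The 8 genes differed widely in the number of consensus regions. Hmga2 had 34, Igf2bp3 18, Mycn 13, Igf2bp1 12, Myc 9, Mycl 4, Lin28a 3 and Lin28b 0. At least 1 region was thus present at 7 of 8 genes, but 82.2% of all coding genes have one in such a window, so this count is near the background. A region overlapped the gene itself at 5 of 8, against 27.6% of coding genes. Densities allow for the length of the windows. Per 100 kb of window, it was 10.8 at Hmga2, 6.32 at Mycn, 5.45 at Igf2bp3, 4.82 at Igf2bp1, 4.39 at Myc, 1.93 at Mycl, 1.39 at Lin28a and 0 at Lin28b. The median of the 8 was 4.61 regions per 100 kb, against 1.31 over all coding genes, and 5 of 8 lay above the upper quartile of 2.65, which by its definition 25% of coding genes exceed. With intervals limited to a −log10 q-value from 10 upward it was 4 of 8, and with fold enrichments from 10 upward 3 of 8, each against the quartile under the same limit. More than 5 regions per 100 kb were found at 3 of 8 genes and at 7.39% of coding genes, and more than 10 at 1 of 8, Hmga2, and at 0.64%. In replicate 1 alone the densities of Myc, Igf2bp1, Mycn and Igf2bp3 ran from 6.34 to 9.08, and in replicate 2 from 4.39 to 8.78. Igf2bp3 was denser than Mycn in both single lists but sparser by consensus regions, and Mycn was denser than Igf2bp1 in replicate 1 and sparser in replicate 2. The order among Mycn, Igf2bp3 and Igf2bp1 is therefore not resolved. Hmga2 was highest in both lists, with 14.9 and 13.6 intervals per 100 kb. Lin28b was lowest in both, with 0.646 and 0.969.

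**Figure D3:**
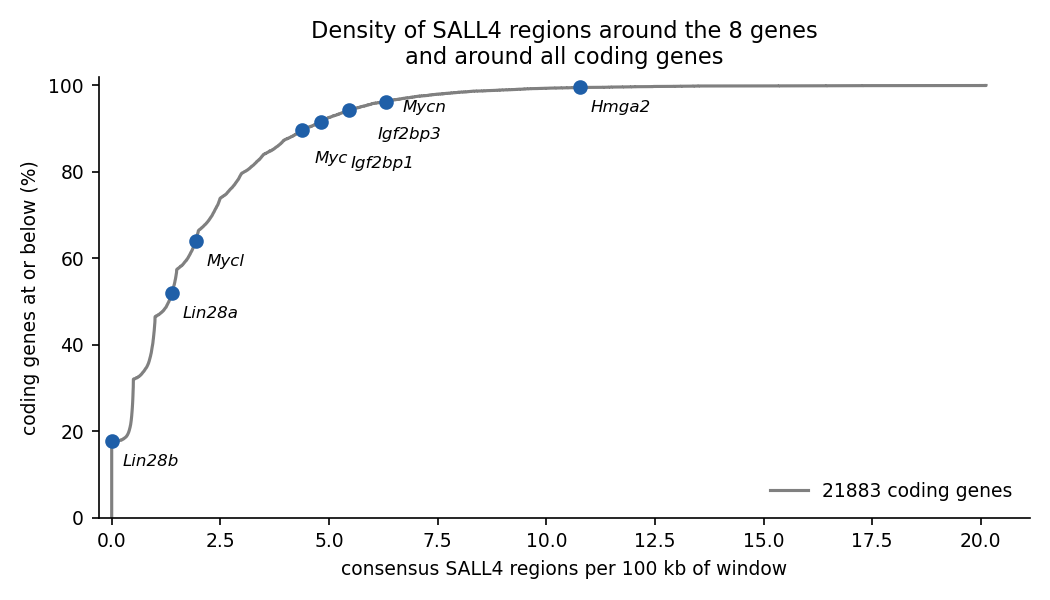
The grey curve gives the percentage of coding genes (y axis) at or below each density of consensus regions per 100 kb of window (x axis), and blue points mark the 8 genes. Lin28b stands at 0 and Hmga2 at 10.8, with 5 genes to the right of 4 regions per 100 kb.

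The regions were of ordinary strength. The median of the mean fold enrichment over both replicates was 6.85 in the 93 regions and 6.84 in all 37997. Only 6 of the 93 belonged to the strongest 10% of all regions, against 10% by definition, and 19 of the 93 had a fold enrichment of at least 10 in both lists, against 21.2% of all regions. Those 6 were 2 at Hmga2, 2 at Igf2bp3, 1 at Mycn and 1 at Igf2bp1. Their median width was 330 bp for the 93 regions and 327 bp for all. An annotated gene of any kind covered the summit in 47 of the 93, against 57.4% of all regions.

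Mycn, which encodes the MYC factor most active in neural and early embryonic growth, had a SALL4 region directly at its promoter. The gene (ID 18109) lies on the minus strand of chromosome 12 at 12936093 to 12941836. A consensus region at 12941850 to 12942090 began just before its start, with its summit 0.108 kb upstream, fold enrichments of 10.9 and 12.1, and 15 and 17 fragments. Of the 6 genes with an entry in the RefSeq promoter table, Mycn alone had a consensus region over the 300 bases from 250 before to 50 after the start, and 3.86% of coding genes with an entry have one. The 250 bases upstream of the start are shown because 237 of them lie in the region. The same stretch of Lin28b, which no interval of either list touches, is set beside it; the start that the table gives for Lin28b lies inside the annotated gene. Capitals mark AATAT, searched on both strands together with its reverse complement ATATT and with AATATT, which contains both. AT-rich words of this kind are known to be bound by a zinc-finger cluster of SALL4.
Mycn, chr12:12941837-12942086, minus strand, GRCm38.p6: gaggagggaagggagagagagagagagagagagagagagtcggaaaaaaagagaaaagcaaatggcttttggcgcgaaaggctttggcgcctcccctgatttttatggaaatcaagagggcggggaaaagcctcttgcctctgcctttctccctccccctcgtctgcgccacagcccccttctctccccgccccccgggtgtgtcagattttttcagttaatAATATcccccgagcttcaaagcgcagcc
Lin28b, chr10:45470202-45470451, minus strand, GRCm38.p6: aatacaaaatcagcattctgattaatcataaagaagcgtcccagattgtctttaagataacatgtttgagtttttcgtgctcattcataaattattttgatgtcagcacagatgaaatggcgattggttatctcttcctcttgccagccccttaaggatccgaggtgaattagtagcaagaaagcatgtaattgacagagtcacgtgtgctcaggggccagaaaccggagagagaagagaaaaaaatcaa

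The Mycn stretch holds 1 match to AATAT, starting at position -28 from the gene start, and none to AATATT. The Lin28b stretch holds no match, although its A+T content of 60.8% is above the 45.2% of Mycn and the highest of the 6 genes. Matches to AATAT or ATATT occur in 23.3% of all 32851 promoter stretches of 250 bases and in 25.3% of the 1005 that overlap a consensus region. AATATT occurs in 6.17% and 4.98% of the same sets. A match is a description of letters only, and one that is common in all promoters.

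The strongest region of the Mycn window lay next to the promoter region, at 12943010 to 12943856, and was 847 bp wide. Its fold enrichments were 20.4 and 18.9 on 35 and 33 fragments, with the summit 1.69 kb upstream of the start. Inside the gene there was 1 region, at 12938685 to 12939119, with fold enrichments of 7.11 and 8.55. Around these, 4 further regions lay upstream and 6 downstream. The strongest of the downstream ones, at 12890017 to 12890467, was in no annotated gene and reached fold enrichments of 13.5 and 16.7. The Mycn window was 4.89 times as dense as chromosome 12 as a whole.

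Myc (ID 17869, chromosome 15, 61985341 to 61990361), the broadly active member of its family, had no region within the gene itself in either list. Its strongest region lay 6.17 kb below the lower end of the gene, at 61978889 to 61979434, with fold enrichments of 13.8 and 14.1 and 22 and 23 fragments. On the other side 8 regions followed, the nearest of them at 61994761 to 61995155, 4.61 kb from the gene, with fold enrichments of 9.64 and 6.80. Of those, 3 had their summits in Pvt1, a long non-coding RNA gene beside Myc that is amplified with it in tumours. Of these 3, the one at 62040977 to 62041488 was strongest by the mean of both replicates, with values of 11 and 7.48. In replicate 2 alone it was the lowest of the 3, below 8.16 and 9.34. The other 5 on that side were in no annotated gene.

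Mycl (ID 16918, plus strand of chromosome 4, 122995588 to 123002490) had 4 regions, all within or downstream of the gene. Inside it, the region at 123001077 to 123001328 was the strongest of the window, with fold enrichments of 11.7 and 6.80 on 16 and 9 fragments. The region nearest the start, 3.48 kb into the gene at 122999346 to 122999526, was weak in both lists, with fold enrichments of 4.73 and 4.53 on 6 and 8 fragments. Mycn and Mycl thus had regions inside the gene and Myc had none, while Mycn and Myc had regions on both sides and Mycl on the downstream side only.

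Hmga2 (ID 15364, minus strand of chromosome 10, 120361268 to 120476469) held the densest group of regions. The gene itself overlapped 27 and 24 intervals in the wild-type lists and 21 consensus regions, and only 64 coding genes overlap more. Its window was denser than those of 99.5% of coding genes and 6.53 times as dense as chromosome 10. Neighbouring summits lay a median of 2.43 kb apart. Among the 2428 coding genes of at least 100 kb, the median was 1.44 per 100 kb, and 11 genes were denser than Hmga2. Within the window the gene covers 36.5% of the sequence and held 61.8% of the regions. In the other 7 windows together, the genes cover 18.7% and held 9 of 59 regions, or 15.3%. That pooled share hides differences between the genes. Per 100 kb, the gene against its flanks held 18.2 against 6.5 regions at Hmga2 and 6.15 against 4.5 at Igf2bp1, but 2.30 against 7.5 at Igf2bp3. In the short genes Mycn and Mycl, the values of 17.4 against 6 and 29.0 against 1 rest on 1 and 2 regions inside the gene.

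The strongest regions at Hmga2 lay outside the gene. A pair upstream of it, 45.6 and 46.7 kb from the start at 120521740 to 120522465 and 120522851 to 120523473, reached fold enrichments of 21.4 and 21.4, and of 16.8 and 20.7. They rest on 43 and 44 fragments and on 32 and 30 fragments, and no annotated gene covers them. Nearer the start, 4 regions clustered 7.21 to 10.4 kb upstream, of which the one at 120485043 to 120486044 had fold enrichments of 13.8 and 16.3. Inside the gene the strongest by the mean of both replicates lay 77.4 kb from the start at 120398836 to 120399190. Its fold enrichments were 14.3 and 12.4 on 41 and 36 fragments. The local background there was 1.94 fragments in replicate 1, against 1.05 at the strongest upstream region, which had 43 fragments. In replicate 2 alone another region inside the gene, at 120417225 to 120417641, was higher. The region nearest the start, at 120472721 to 120472927 and 3.67 kb into the gene, had fold enrichments of 6.20 and 6.12 on 8 fragments each.

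**Figure D4:**
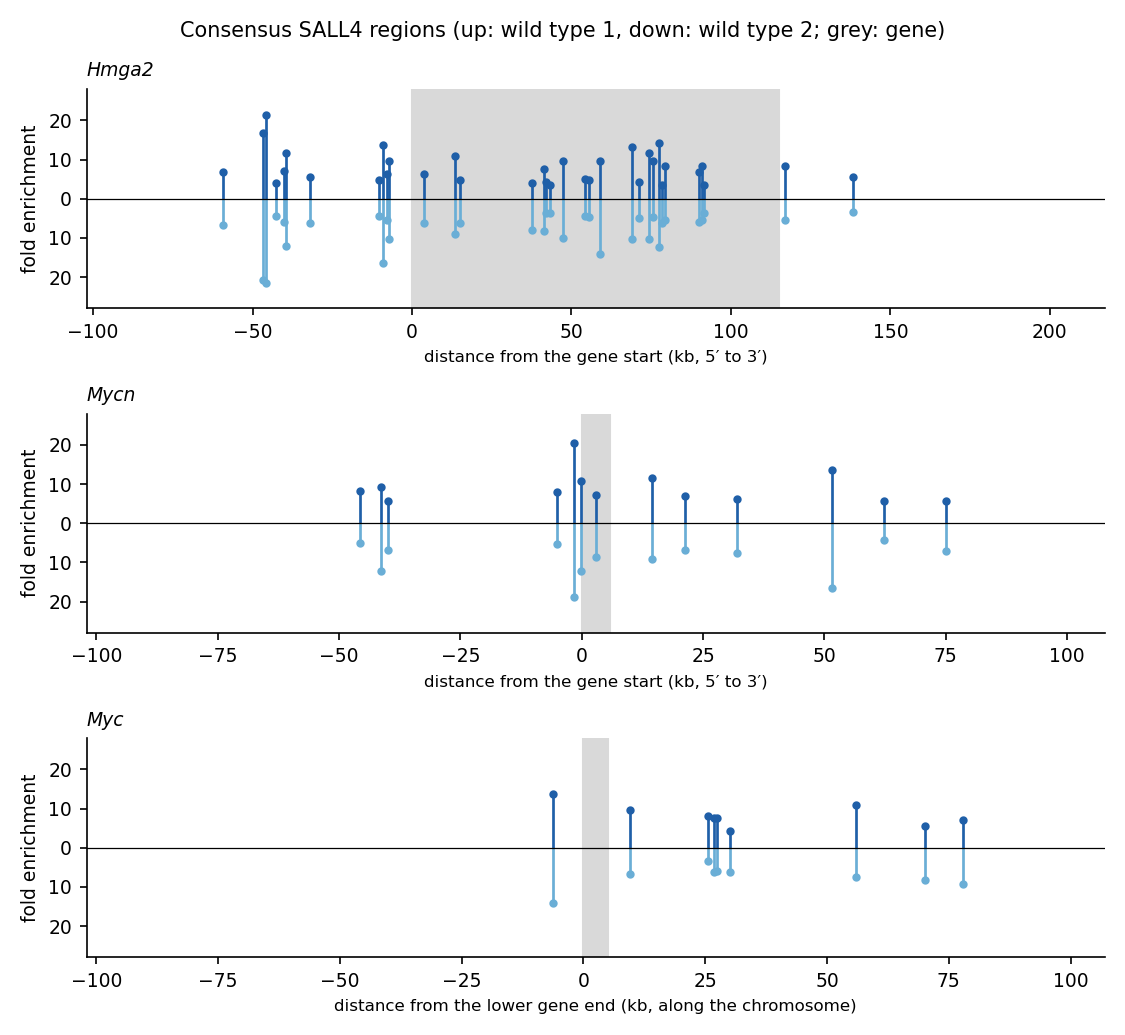
Each stem is a consensus region at Hmga2, Mycn or Myc, with fold enrichment in wild-type replicate 1 upward and replicate 2 downward (y axis) and distance in kb on the x axis. Grey marks the gene, from its start for Hmga2 and Mycn and from its lower end for Myc. At Hmga2 21 of 34 stems stand over the gene, at Mycn the tallest stem stands 1.69 kb before the start, and at Myc no stem stands over the gene.

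By a profile of 8 values (intervals in the gene and in each flank and the highest fold enrichment, in each wild-type list, on the log2 scale), the coding genes closest to Hmga2 were Dclk2 and Gpc3. Dclk2, a kinase gene on chromosome 3, had 26 and 29 intervals in the gene and a Euclidean distance of 0.60. Gpc3, on the X chromosome, encodes an oncofetal cell-surface proteoglycan and had 26 and 19 intervals in the gene and a distance of 0.706. The likeness is in the number and height of intervals only, without allowing for gene length. Per 100 kb of window, Dclk2 had 11.35 consensus regions and Gpc3 5.54, against 10.8 at Hmga2.

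The paralogues Igf2bp1 and Igf2bp3 encode proteins that bind RNA and are largely absent from adult tissues. Both had most of their regions outside the gene, where most of each window lies. Per 100 kb, Igf2bp1 was denser inside the gene than in its flanks (6.15 against 4.5), and Igf2bp3 was sparser (2.30 against 7.5). Igf2bp3 (ID 140488, minus strand of chromosome 6, 49085218 to 49215469) had 3 of its 18 regions inside and Igf2bp1 (ID 140486, chromosome 11, 95957163 to 96005944) 3 of 12. By the mean of both replicates, the strongest of all 93 regions lay in the Igf2bp3 window at 49019023 to 49019678. Its fold enrichments were 26.9 and 22.4 on 38 and 32 fragments. It was 65.8 kb beyond the downstream end of Igf2bp3, in the long non-coding RNA gene Gm52881. In replicate 2 alone a region of the Igf2bp1 window, at 95883848 to 95884543, was higher, with 23.8. Upstream of Igf2bp3, 60 kb from its start and closer to the gene Tra2a, the region at 49274731 to 49275908 was 1178 bp wide and had fold enrichments of 17.1 and 21.9. By the mean of both replicates, the strongest inside Igf2bp3, at 49137499 to 49138273, had 15.2 and 13.6. It also lay in the overlapping annotation of Malsu1. In replicate 2 alone the region at 49098868 to 49099573 was higher inside Igf2bp3, with 12.9 in replicate 1 and 15.3 in replicate 2. The nearest to its start, 3.19 kb upstream at 49217960 to 49218277, had 6.89 and 7.04.

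At Igf2bp1 the strongest region lay 72.8 kb below the gene in B4galnt2, a glycosyltransferase gene, at 95883848 to 95884543. Its fold enrichments were 22.0 and 23.8 on 31 and 34 fragments. By the mean of both replicates, the strongest inside Igf2bp1, at 95982523 to 95982745, had 7.86 and 8.98 on 11 and 13 fragments. In replicate 1 alone the region at 95980516 to 95981422 was higher, with 8.85 in replicate 1 and 7.54 in replicate 2. The one nearest an end of the gene, at 95963557 to 95963740, had 4.57 and 3.52 on 8 and 6 fragments. For both genes the highest regions were thus nearer to, or inside, another gene than the one that named the window, and the lists do not say which gene a region belongs to.

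The LIN28 genes had few regions, 3 at Lin28a and 0 at Lin28b. Lin28a and Mycl, with 3 and 4 regions, are not resolved in order, since replicate 2 had 5 intervals at Lin28a and 4 at Mycl. Lin28a (ID 83557, minus strand of chromosome 4, 134003330 to 134019196) had 3 regions, all downstream and none in the gene. The strongest, at 133913623 to 133913909, had fold enrichments of 8.79 and 8.67 on 12 fragments each and lay 89.6 kb from the gene. The nearest, at 133977911 to 133978199, was 25.3 kb away within the gene Dhdds and had 4.82 and 8.16. Within Lin28a itself 1 interval was called in replicate 2 alone, with a fold enrichment of 3.40 on 4 fragments. Its density of 1.39 per 100 kb is close to the median of all coding genes.

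Lin28b (ID 380669, minus strand of chromosome 10, 45376617 to 45486314) had no consensus region in a window of 309.7 kb. Replicate 1 had 2 intervals there, with fold enrichments of 6.16 and 4.82 on 8 and 6 fragments, the latter inside the gene. Replicate 2 had 3, all upstream, with fold enrichments of 4.53, 4.08 and 4.08 on 8, 5 and 5 fragments. None of the 5 was found in the other list. Of the 2428 coding genes of at least 100 kb, 121 had no region in their window, which is 4.98%.

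A consensus region within 5 kb of the gene start was present at 4 of the 6 genes whose strand the promoter table gives, namely Mycn, Mycl, Hmga2 and Igf2bp3, and not at Lin28a or Lin28b. Among coding genes with an entry the share is 18%. At a −log10 q-value from 10 upward, 1 of the 6 was left, Mycn, against 6.20% of coding genes. For Myc and Igf2bp1 both ends were searched, which gives them more room, and Myc had a region within 5 kb of an end, making 5 of 8. Within 20 kb the count was 6 of 8, again with both ends searched for Myc and Igf2bp1, against 39.6% of coding genes with an entry. Within 1 kb the count was 1 of 8, Mycn, against 6.94% of coding genes.

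Other genes of these pathways were then counted, from 51 genes in 5 lists, with the gene and 10 kb on each side as the window. A consensus region was present at 32 of 51, and no knockout interval lay within 100 kb of any. Of the 51, 38 are protein-coding, and 23 of these had a region, or 60.5%, against 42.1% of all coding genes. The others are 12 let-7 genes and the non-coding H19. The number depends on gene length, since long genes have larger windows. Of the 8 genes that process let-7 or act with LIN28, 5 had a region, beside the same 42.1% of coding genes. Dis3l2, the nuclease that degrades let-7 precursors marked through LIN28, had most with 9, the highest with fold enrichments of 8.38 and 8.24. It spans 348 kb, and with 100 kb on each side its density was 1.64 per 100 kb. The median of coding genes of at least 100 kb was 1.44. Dicer1, Dgcr8 and Tut7 had none.

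Among the 12 let-7 genes, 8 had a region within 10 kb, against 23% of all miRNA genes. At a −log10 q-value from 10 upward only Mirlet7g kept one, which is 1 of 12 against 7.41%. No region overlapped a let-7 gene itself, which is near the background, since only 0.651% of all miRNA genes are overlapped by one. These genes lie in clusters and share regions, so the 8 rest on 9 distinct regions. Mirlet7g had 5, of which the strongest, at chromosome 9, 106176909 to 106177082, had fold enrichments of 12.6 and 8.83. Mirlet7a-1, Mirlet7d and Mirlet7f-1 shared 1 region, Mirlet7b and Mirlet7c-2 shared another, and Mirlet7i and Mir98 had 1 each. Mirlet7a-2, Mirlet7c-1, Mirlet7e and Mirlet7f-2 had none. Mature sequences of 4 of those with a region are shown, one for each place in the genome except the chromosome 13 cluster, because let-7 is the family that LIN28 blocks. Capitals mark the seed, bases 2 to 8, with which they find their targets and which all 4 share.
let-7g-5p: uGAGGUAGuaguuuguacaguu
let-7b-5p: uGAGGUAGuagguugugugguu
let-7i-5p: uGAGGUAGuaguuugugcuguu
miR-98-5p: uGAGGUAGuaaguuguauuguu

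Of the 10 partners and rivals of MYC, 6 had a region, again beside 42.1% of coding genes. Mga, a MAX partner that represses germ cell genes in stem cells, had most with 11, the strongest with fold enrichments of 17.9 and 14.3. Max itself, the partner of all 3 MYC proteins, was singled out after its values were seen and had 1 region within 10 kb, with 8.38 and 5.53. Mlx, Mlxip, Mxd1 and Mxd4 had none.

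Of the 16 let-7 targets and growth genes, 10 had a region, beside 42.1% of coding genes. Cdk6, a cell-cycle kinase and let-7 target, had 14, and the strongest had fold enrichments of 34.5 and 34.7. Arid3b, a let-7 target singled out after its values were seen, had 5 regions and the strongest of all 51 genes, with 35.8 and 36.0. Both exceed any region at the 8 genes. Igf2bp2, the third gene of its family, was singled out after its values were seen and had 13 regions, 12 of them inside the gene, the strongest with 14.6 and 11.9. Hmga1, the paralogue of Hmga2, had none within 10 kb, as did Igf2, Ccnd1, Ccnd2, Hras and E2f2. Of 5 other oncofetal genes 3 had a region, one of them the non-coding H19, which leaves 2 of 4 coding genes beside the 42.1%. Gpc3 had most with 17, the strongest with 28.2 and 23.8, and Afp and Dlk1 had none.

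**Figure D5:**
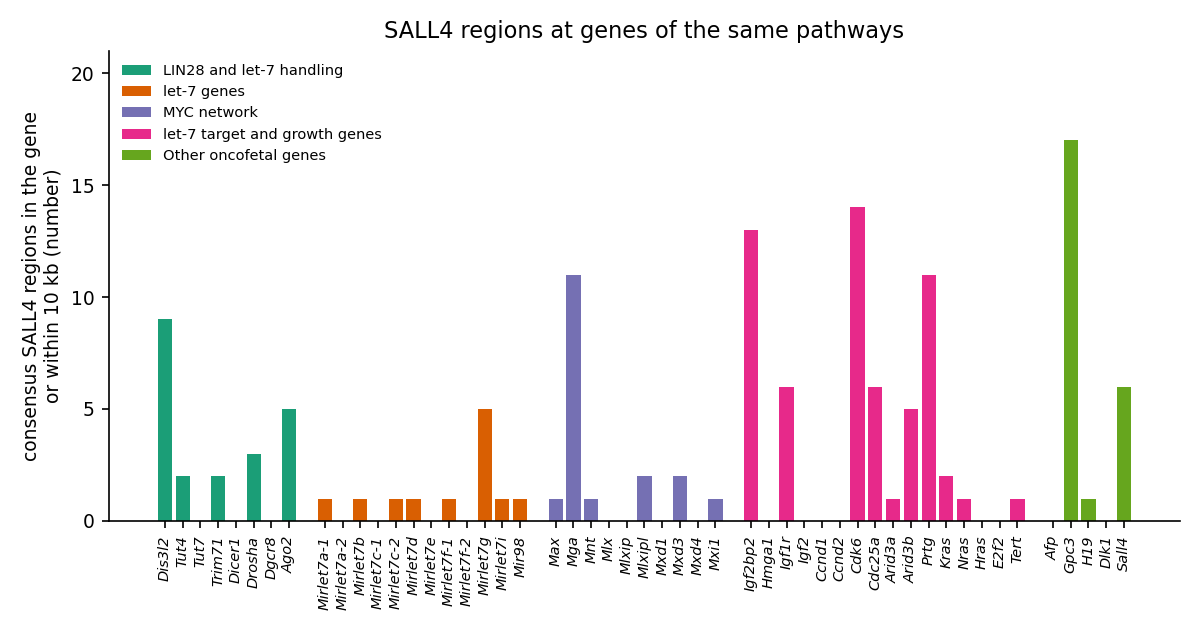
Bars give the number of consensus regions (y axis) in each of 51 genes (x axis) or within 10 kb of it, coloured by list. The highest bars are Gpc3 with 17, Cdk6 with 14 and Igf2bp2 with 13, and 19 genes have none.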

How the data were processed

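The values come from 4 peak lists, 1 per SALL4 library, called on single samples. Groups and replicate numbers follow the sample titles, also for wild-type replicate 2, whose peaks are named with KWT, a mix of both genotypes' letters. Per the submitters' processing notes, Trim Galore 0.6.0, cutadapt 1.18, FastQC 0.11.8, BWA 0.7.17 and MACS2 2.1.1.20160309 were used with the builds GRCm38 and mm10; their settings are not given in the sources used here. In every deposited line the score equals 10 times the −log10 q-value, rounded down. Fold enrichment is the authors' ratio of the summit to its local background, with 1 added to each. The −log10 p-value, −log10 q-value and summit offset in bp were used as deposited.

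Overlapping lines of a list were merged and the highest fold enrichment was kept. Coordinates count from 1. Genes, and the promoter and miRNA sequences, came from RefSeq tables of GRCm38.p6, which hold no exons; all 8 genes matched, and 6 had a promoter entry (not Myc and Igf2bp1). Pileups were solved from the fold enrichment (pseudocount of 1) and the Poisson p-value, and all steps were tested on simulated data. The planned motif search in the regions was not run, since no genome sequence was used here. Named for each gene are the strongest region in the window, the strongest inside the gene, the nearest to its start or ends, and any knockout interval; for each pathway list, the gene with most regions and those with none. Members and lists were chosen with earlier results of these data known. Alternatives varied the window, thresholds, overlap rule and libraries. Python 3.11.15, numpy 2.4.6, pandas 2.3.3, scipy 1.17.1 and matplotlib 3.10.9 were used.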

Additional observations from a re-analysis of the deposited data

How the results depend on the processing

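The log2 difference of wild type over knockout ran from 4.70 at a fold enrichment of at least 10 to 8.04 with 0.5 added in place of 1; since the knockout lists hold 0 intervals in the windows, none of the 11 alternatives could turn its direction. The genotypes share replicate numbers. With the replicate number as a block, the difference was 7.05 and flipping signs within the pairs gave an exact p = 0.5, the lowest possible with 2; whether equal numbers mark a shared origin was not tested. The median density of the 8 windows (4.61 regions per 100 kb) was 6.90 with 10 kb on each side, 1.05 at a −log10 q of at least 10, 0.445 at a fold enrichment of at least 10, 2.87 at a −log10 p of at least 8, and 4.61 to 6.59 with one library left out. Stricter limits keep fewer regions by construction, and the medians of all coding genes fell too, to 0.40, 0 and 0.498. The value was 4.39 without Hmga2, a setting chosen after seeing the data. The window of Hmga2 was denser than 98.5% to 99.7% of coding genes over the settings that included it. The share of intervals found in the other list (72.4% on average) was 80.3% at the strict q-value, 79.3% at the p-value limit, 60.3% where 50% of both intervals had to overlap and 61.8% with summits within 100 bp. Genes with a region within 5 kb of the start numbered 1 in place of 5 both at the strict q-value and within 1 kb. Pathway genes with a region numbered 13 at the strict q-value and 18 in the gene alone, in place of 32; of the 38 coding ones these were 31.6% and 47.4%, against 20.5% and 27.6% of all coding genes. Windows above the upper quartile of coding genes numbered 3 to 6 over the settings, in place of 5. Of 88 recomputed counts per gene, 55 were within 1.5 times. This tally includes the counts with a knockout list left out, which could not move, since those lists hold 0 intervals in the windows. The strict q-value left regions at 6 of 8 genes (Hmga2 11, Igf2bp3 8, Mycn 5, Igf2bp1 4, Myc 1, Lin28a 1) and the fold limit at 5 (Hmga2 7, Igf2bp3 7, Mycn 3, Igf2bp1 1, Myc 1), with Mycl at 0 in both; within 10 kb Lin28a had 0. Without wild-type replicate 1, Lin28b had 3 regions, Lin28a 5 and Igf2bp3 29, and without replicate 2 these had 2, 6 and 30, and Mycl 7, since a single list then stands for the consensus. The alternatives of the motif search were not run. How depth limits the weak calls was not tested, since total read numbers are not given in the sources used here.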
